A study of Homo sapiens with 30 samples.

Results

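The 10 genes described here encode small noncoding RNAs made by RNA polymerase III (Pol III): RN7SL1, RN7SL2, RN7SK, RMRP, RPPH1, RNY1, RNY3, VTRNA1-1, VTRNA1-2 and VTRNA1-3. They were chosen by name, with earlier results of these data known, and the rule itself uses no measured value. Every identifier of each gene was kept, and RMRP has 2, so the 10 genes fill 11 of the 57992 rows of the deposited table. The table gives RPKM, which scales reads by transcript length and by the mapped reads of the library.

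Pol III makes short RNAs that all cells need, among them the tRNAs and 5S ribosomal RNA. RN7SL1 and RN7SL2 encode 7SL, the RNA scaffold of the signal recognition particle (SRP), which brings ribosomes making secreted and membrane proteins to the endoplasmic reticulum. RN7SK encodes 7SK, which holds the kinase P-TEFb in an inactive complex and so limits the release of paused RNA polymerase II. RMRP and RPPH1 are the catalytic RNAs of RNase MRP and RNase P, which cut precursors of ribosomal RNA and of tRNA. Y RNAs are bound by the Ro60 protein, and vault RNAs are part of the vault particle. MYC is known to bind TFIIIB, the initiation factor that recruits Pol III, and to raise Pol III transcription.

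Omomyc is a miniprotein built from the dimerization region of MYC that pairs with MYC and MAX. RNA from 2 human cancer cell lines, treated with Omomyc or left untreated, was sequenced after depletion of ribosomal RNA, in 10 groups of 3 libraries. HCT116 is a colon carcinoma line labelled as having stabilized MYC; it was left untreated or given 2 or 10 μM Omomyc for 6 or 24 h. Ramos is a Burkitt's lymphoma line with a MYC translocation; it was left untreated or given 0.5 or 2.5 μM Omomyc for 6 or 24 h. HCT116 cells received Omomyc with ProteoJuice, a reagent that carries proteins into cells, and the study's methods can be read as giving it to the untreated cells too or to the treated cells alone. On the second reading the reagent and Omomyc cannot be told apart. How Omomyc was delivered to Ramos cells is not given either. Each line had 1 untreated group with no stated time, which served both time points.

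The labels of the 2 lines were checked against marker genes. The epithelial genes EPCAM, KRT8, KRT18, CDH1 and CDX2 were detected in all 15 HCT116 libraries, with KRT8 at 479 to 812 RPKM, and KRT8 did not exceed 0.669 RPKM in Ramos. The B cell genes CD79A, CD79B, MS4A1 and PAX5 were detected in all 15 Ramos libraries, with CD79B at 348 to 635 RPKM, and MS4A1 was listed at 0 in all 15 HCT116 libraries. The sum of all RPKM values ran from 593633 to 1051040 per library. Within groups, Pearson's r across genes was 0.973 to 0.996 over the 30 pairs of libraries, and no 2 libraries were identical. The library of HCT116 at 10 μM for 6 h labelled replicate 3 had the highest sum and stood apart in 7SL and RPPH1. Some results that rest on it are given with and without it, and for others the value of each library is given.

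Sequences and positions bear on how these rows can be read, because several share reads with another row. All positions are GRCh38 with GENCODE 29 genes, and the sequences are the GENCODE 29 transcripts. RN7SL1 lies at chr14:49586580-49586878 on the plus strand and RN7SL2 at chr14:49862550-49862849 on the minus strand. The transcripts were identical at 295 of 300 aligned positions (98.3%). RN7SL3, at chr14:49853616-49853914 on the minus strand, differed from RN7SL1 at 7 of 299 positions.

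A read that covers none of the differing bases fits each copy equally, so the split of 7SL reads between the rows is uncertain and their sum is given too. RN7SL1 also lies whole within an exon of AL139099.4, a noncoding row on the same strand, and in an intron of RPS29 on the opposite strand. RN7SL2 lies in an intron of the long noncoding RNA AL627171.2.

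The 2 RMRP rows describe 1 RNA. The row of 268 bases, ENSG00000269900, lies at chr9:35657751-35658018 on the minus strand, and the row of 264 bases, ENSG00000277027, at chr9:35657754-35658017. They share all 264 bases of the shorter row, and the longer row adds the 4 end bases in capitals.
RMRP, longer row: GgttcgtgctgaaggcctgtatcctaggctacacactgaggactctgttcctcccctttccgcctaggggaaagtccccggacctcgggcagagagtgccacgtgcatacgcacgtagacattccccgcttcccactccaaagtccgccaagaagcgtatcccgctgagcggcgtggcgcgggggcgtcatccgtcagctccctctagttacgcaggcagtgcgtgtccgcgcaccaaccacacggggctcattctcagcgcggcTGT

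The division of reads between these 2 rows is therefore uncertain. RN7SK (ENSG00000283293), at chr6:52995621-52995948 on the plus strand, is covered whole by RF00100, a second annotation of 7SK. RPPH1 (ENSG00000277209), at chr14:20343075-20343407 on the minus strand, lies whole within an exon of AL355075.4 on the same strand. No other gene overlapped the Y RNA or vault RNA genes. RNY1 is at chr7:148987136-148987248 on the minus strand and RNY3 at chr7:148983755-148983856 on the plus strand. The Y RNAs are the short members that were measured, and they were 72.6% identical over 113 aligned positions. RNY1 is shown because it rose against untreated cells at both HCT116 doses and times.
RNY1: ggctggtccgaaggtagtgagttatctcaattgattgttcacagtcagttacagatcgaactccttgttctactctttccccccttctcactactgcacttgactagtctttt

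The members also differ in the sequence signals inside the transcript. The letters GTTCNANNC of the B box, an internal promoter element bound by TFIIIC, were searched on the transcript strand. They were found in RNY1 from position 67, in VTRNA1-1 from position 67 and in VTRNA1-2 and VTRNA1-3 from position 57, counted from the 5′ end, and in none of the other members. Of 4694 annotated short RNA transcripts of 80 to 400 bases, 6.65% held these letters. Pol III ends transcription at a run of T, so TTT was searched in the last 10 bases of each annotated transcript. It was found in RN7SK, RNY1, RNY3, VTRNA1-1 and VTRNA1-2, against 33.7% of the same background. Bases past the annotated end were not searched, so a row without TTT may still have a T run there. GC content ran from 44.2% in RNY1 to 64.6% in RPPH1.

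The members spanned the whole range of the table. RN7SL1, RN7SL2 and RN7SK were the highest in both lines, with medians over 15 libraries of 56761, 53364 and 52898 RPKM in HCT116 and 67148, 84157 and 111072 RPKM in Ramos. The ranges of these 3 rows overlapped in each line. RMRP and RPPH1 came next. In HCT116 the shorter row of RMRP had a median of 26462 RPKM and RPPH1 of 22766 RPKM, with overlapping ranges. In Ramos RPPH1 had a median of 39616 RPKM and lay above the shorter row of RMRP in all 15 libraries, since the lowest RPPH1 value was 30540 RPKM and the highest of the RMRP row 23799 RPKM. The Y RNAs lay far below these, with medians of 65.7 RPKM for RNY1 and 120 RPKM for RNY3 in HCT116, and the vault RNAs had medians of 0. The Y and vault RNAs are at most 113 bases long, and the study isolated HCT116 RNA with an RNeasy kit. How well RNA this short was recovered was not tested, so this order is one of RPKM and may not be that in the cell.

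**Figure D1:**
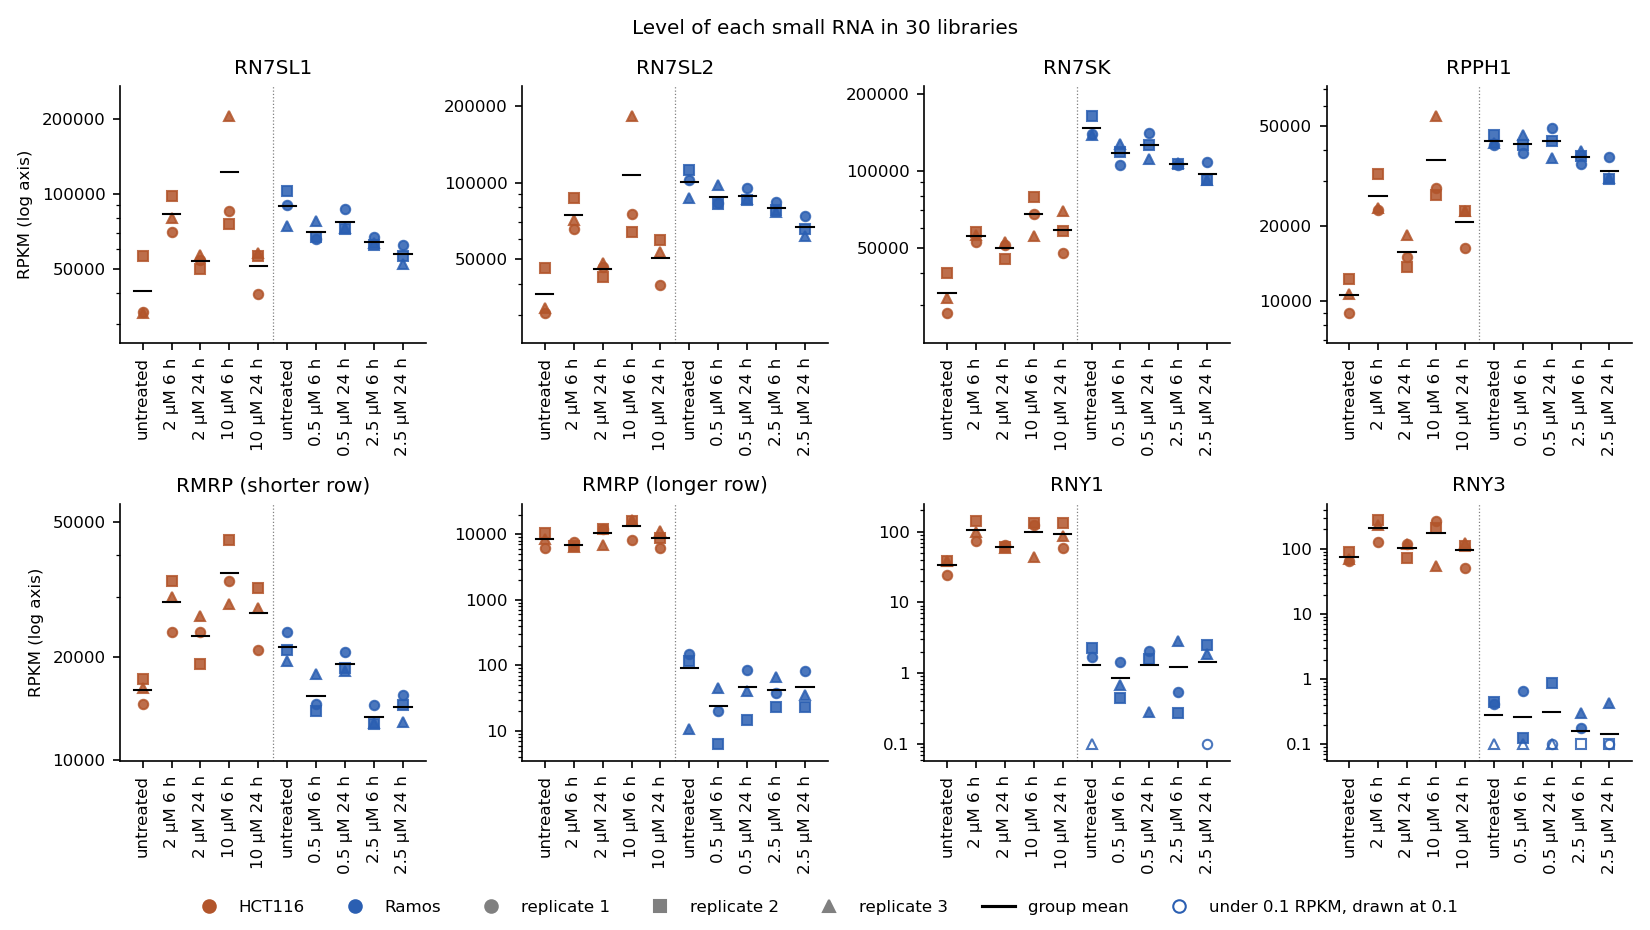
RPKM of the 8 member rows other than the vault RNAs (log axis) in each of the 30 libraries, 1 point per library with its shape giving the replicate, by cell line, dose and time; a short bar marks each group mean, and open points under 0.1 RPKM are drawn at 0.1. RN7SL1, RN7SL2 and RN7SK lie between 27878 and 207392 RPKM in every library, the longer RMRP row is 6096 to 16368 RPKM in HCT116 and at most 150 RPKM in Ramos, and RNY1 and RNY3 do not exceed 2.81 RPKM in Ramos.

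Untreated HCT116 and untreated Ramos cells were compared first. RN7SK was 4.46-fold lower in HCT116, RPPH1 4.11-fold, RN7SL2 2.80-fold and RN7SL1 2.24-fold, while RNY1 and RNY3 were measured in HCT116 and nearly absent in Ramos. All 8 member rows tested differed by limma at an adjusted p under 0.05, 3 higher and 5 lower in HCT116, where 45.7% of all genes tested were called higher and 39% lower. A share of the members this large is therefore near the background. Folds are on the scale of log2(RPKM + 0.5), which understates the change of low rows.

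7SK averaged 33164 ± 6057 RPKM in HCT116 and 146698 ± 14665 RPKM in Ramos (SD, n = 3), a log2 difference of -2.16 ± 0.14 (SE, adjusted p = 5.38e-06). RPPH1 averaged 10627 ± 1649 and 43389 ± 2186 RPKM (adjusted p = 2.21e-06). The 7SL rows were also lower in HCT116, with log2 differences of -1.16 ± 0.23 for RN7SL1 (adjusted p = 0.00221) and -1.48 ± 0.17 for RN7SL2 (adjusted p = 0.000133). In these 4 rows every HCT116 library lay below every Ramos library.

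The RMRP rows went in opposite directions. The longer row averaged 8393 ± 2204 RPKM in HCT116 and 93.0 ± 73.1 RPKM in Ramos, a log2 difference of 7.13 ± 0.94 (adjusted p = 0.00026). The shorter row averaged 16019 ± 1362 and 21443 ± 2188 RPKM, a log2 difference of -0.42 ± 0.10 (adjusted p = 0.00492). With both rows added, the difference was 0.18 (adjusted p = 0.223), and with all libraries set to an equal sum of RPKM the shorter row was 0.16 higher in HCT116 (adjusted p = 0.137), so the direction for this RNA depended on how its rows and the libraries were scaled.

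The Y RNA rows were higher in HCT116, at 33.9 ± 7.99 RPKM for RNY1 against 1.30 ± 1.16 in Ramos (adjusted p = 0.000295) and 75.1 ± 12.2 RPKM for RNY3 against 0.285 ± 0.247 (adjusted p = 2.73e-07). Other short RNAs of the table were rare too. Of the 5300 rows of at most 120 bases, 11 (0.208%) reached 0.5 RPKM in all 3 untreated HCT116 libraries and 4 (0.0755%) in the 3 untreated Ramos libraries, against 3.66% and 2.13% of rows of 121 to 200 bases. How far the recovery of short RNA in each line entered the Y RNA difference was not tested.

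The next question was whether Omomyc changed the levels of these RNAs within a line. In HCT116 cells, 7SL, 7SK, RPPH1, RNY1 and the shorter row of RMRP rose after 6 h at both doses, and RNY3 rose at 2 μM. RPPH1 rose most among the abundant RNAs, 2.46-fold at 2 μM and 3.27-fold at 10 μM. At 24 h RNY1, RPPH1 and the shorter row of RMRP were called at both doses and RN7SK at 2 μM, all higher.

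By limma at an adjusted p under 0.05, 7 of 8 member rows tested rose at 2 μM for 6 h, where 15.5% of all genes were called higher and 31.8% lower. At 10 μM for 6 h, 6 of 9 rose against backgrounds of 8.84% higher and 21.2% lower. At 24 h, 4 of 8 rose at 2 μM (16.6% higher, 10.8% lower) and 3 of 8 at 10 μM (19.5% higher, 15.7% lower). No member row fell in these 4 comparisons. These counts depended on single libraries. At 10 μM for 6 h the count was 0, 1 and 1 without untreated replicates 1, 2 and 3. It was 3 without treated replicate 1 and 7 without treated replicate 3. Over all genes, 1307 were called higher there with all libraries. That number was 600, 589 and 509 without untreated replicates 1, 2 and 3. It was 899 without treated replicate 1 and 2965 without treated replicate 3. At 2 μM for 6 h the member count was 4 without untreated replicate 1 or 3. The genes called higher in those fits were 1805 and 1698, against 2251. At 2 μM for 24 h the member count was 1 without untreated replicate 1 or 3 or treated replicate 1. The genes called higher there were 1656, 1312 and 1800, against 2466. With no filter on low values the member counts were 2 and 1 at 2 μM for 6 and 24 h and 0 and 1 at 10 μM. Of 29518 genes then tested at 10 μM for 6 h, 889 were called higher, against 1307 of 14785. The 4 comparisons share their 3 untreated libraries, so their results are not independent. The median log2 difference over the member rows tested was 1.06, 0.49, 1.13 and 0.61 at 2 μM for 6 and 24 h and at 10 μM for 6 and 24 h, and that of all genes tested was -0.12, 0.04, -0.11 and 0.02. The rows left out were the vault RNAs, which had means under 0.5 RPKM apart from VTRNA1-3 at 10 μM for 6 h.

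The SRP RNA was measured by RN7SL1 and RN7SL2. RN7SL1 was 33346, 56067 and 33081 RPKM in the untreated HCT116 libraries and 70558, 98291 and 80433 RPKM after 6 h at 2 μM. At 10 μM for 6 h it was 85222, 75521 and 207392 RPKM. All 6 libraries at 6 h lay above all 3 untreated libraries, and replicate 3 at 10 μM was the highest of the series. After 24 h RN7SL1 was 54198, 49739 and 56761 RPKM at 2 μM and 39700, 56255 and 57656 RPKM at 10 μM, which overlapped the untreated range.

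RN7SL1 rose 2.08-fold at 2 μM for 6 h (log2 difference 1.06 ± 0.31 (SE), adjusted p = 0.0205) and 2.78-fold at 10 μM for 6 h (1.48 ± 0.47, adjusted p = 0.0495). Without treated replicate 3 the log2 difference at 10 μM for 6 h was 1.02 (adjusted p = 0.0122), and without treated replicate 1 or untreated replicate 1, 2 or 3 it was not called (adjusted p = 0.0716, 0.161, 0.0882 and 0.173). At 2 μM for 6 h the call was lost without untreated replicate 1 or 3 (adjusted p = 0.0965 and 0.118). At 24 h the log2 differences of 0.44 ± 0.21 and 0.35 ± 0.33 were not called (adjusted p = 0.155 and 0.429). RN7SL2 moved with it. Its untreated libraries held 30714, 46030 and 32089 RPKM, those at 2 μM for 6 h 65857, 87321 and 71014 RPKM, and those at 10 μM for 6 h 75284, 64064 and 183291 RPKM. Its log2 differences at 6 h were 1.06 ± 0.28 at 2 μM (adjusted p = 0.0128) and 1.43 ± 0.46 at 10 μM (adjusted p = 0.0497). At 24 h they were 0.36 ± 0.17 and 0.49 ± 0.30 (adjusted p = 0.154 and 0.236). The calls of both rows at 10 μM for 6 h were lost under median-ratio scaling (adjusted p = 0.0681 for each) and with the rows summed (adjusted p = 0.061). The calls of RN7SL2 were lost without the same libraries as those of RN7SL1 (adjusted p = 0.0724 to 0.165 at 10 μM and 0.0705 and 0.0818 at 2 μM).

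7SK also rose at 6 h, with a narrower spread there, and unlike 7SL it stayed above the untreated range at 24 h. RN7SK was 27878, 39773 and 31842 RPKM untreated. At 6 h it was 52782, 57610 and 56255 RPKM at 2 μM and 68047, 79064 and 55597 RPKM at 10 μM. In the library that stood apart in 7SL, replicate 3 at 10 μM for 6 h, RN7SK was the lowest of its group. At 24 h it was 51072, 45300 and 52898 RPKM at 2 μM and 47835, 58340 and 69804 RPKM at 10 μM. All 12 treated libraries lay above the 3 untreated ones.

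RN7SK rose by 0.76 ± 0.25 on the log2 scale at 2 μM for 6 h (1.69-fold, adjusted p = 0.0307) and by 1.03 ± 0.30 at 10 μM for 6 h (2.04-fold, adjusted p = 0.037). At 2 μM for 24 h it rose by 0.60 ± 0.16 (1.51-fold, adjusted p = 0.0249), and at 10 μM for 24 h the difference of 0.82 ± 0.29 missed the threshold (adjusted p = 0.0532). RF00100, which covers the same bases, held 0.0055 to 99.0 RPKM in HCT116, at most a small addition to RN7SK. The 6 h calls of RN7SK were lost under median-ratio scaling (adjusted p = 0.0555 at 2 μM and 0.0505 at 10 μM) and without any 1 of the untreated libraries (adjusted p = 0.0512 to 0.146 at 2 μM and 0.0961 to 0.15 at 10 μM). They were also lost without treated replicate 1 at 2 μM (adjusted p = 0.0804) and treated replicate 1 or 2 at 10 μM (adjusted p = 0.0829 and 0.0771). The call at 2 μM for 24 h was lost without untreated replicate 1 or 3 or treated replicate 1 (adjusted p = 0.0704, 0.0859 and 0.0898).

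RPPH1, the RNase P RNA, rose at both doses and both times. It was 8968, 12266 and 10646 RPKM in untreated HCT116 cells, 23035, 32093 and 23547 RPKM at 2 μM for 6 h and 28226, 26382 and 54791 RPKM at 10 μM for 6 h. At 24 h it was 15053, 13691 and 18396 RPKM at 2 μM and 16294, 22912 and 22766 RPKM at 10 μM. No treated library reached down to the untreated range at either dose or time. The log2 differences were 1.30 ± 0.21 (adjusted p = 0.00101) and 1.71 ± 0.33 (adjusted p = 0.00917) at 6 h. At 24 h they were 0.56 ± 0.15 at 2 μM (adjusted p = 0.0215) and 0.95 ± 0.21 at 10 μM (adjusted p = 0.00666). Without treated replicate 3, the difference at 10 μM for 6 h was 1.37 (adjusted p = 0.000291), and without untreated replicate 1 it was 1.59 and missed the threshold (adjusted p = 0.0508). The call at 2 μM for 24 h was lost without untreated replicate 1 or 3 or treated replicate 1 (adjusted p = 0.0659, 0.0647 and 0.0551). With no filter on low values RPPH1 was not called at either dose or time (adjusted p = 0.182 and 0.321 at 2 μM and 0.374 and 0.287 at 10 μM, for 6 and 24 h). AL355075.4, the row that contains RPPH1, ran from 439 to 3609 RPKM in HCT116.

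RMRP, the RNA of RNase MRP, rose in its shorter row. The shorter row was 14577, 17283 and 16198 RPKM untreated, 23786, 33527 and 30032 RPKM at 2 μM for 6 h and 33409, 44158 and 28754 RPKM at 10 μM for 6 h. At 24 h it was 23680, 19170 and 26462 RPKM at 2 μM and 20981, 31895 and 27824 RPKM at 10 μM. All treated libraries lay above the untreated ones. Its log2 differences were 0.85 ± 0.21 and 1.13 ± 0.26 at 6 h (adjusted p = 0.00825 and 0.0166) and 0.52 ± 0.14 and 0.73 ± 0.22 at 24 h (adjusted p = 0.0244 and 0.0294). Without untreated replicate 1, 2 or 3 the row was not called at 10 μM for 6 h (adjusted p = 0.0817, 0.0717 and 0.0809) or at 10 μM for 24 h (adjusted p = 0.121, 0.08 and 0.121), and without untreated replicate 1 or 3 it was not called at 2 μM for 24 h (adjusted p = 0.0735 and 0.0719). The 24 h calls were also lost without treated replicate 1 or 3 at 2 μM (adjusted p = 0.0856 and 0.0505) and treated replicate 2 at 10 μM (adjusted p = 0.0662).

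The longer row of RMRP was not called in any of these comparisons, with log2 differences of -0.26 ± 0.20, 0.28 ± 0.25, 0.65 ± 0.34 and 0.06 ± 0.25 at 2 μM for 6 and 24 h and at 10 μM for 6 and 24 h. It was 6096, 10491 and 8593 RPKM untreated and 7549, 6603 and 6457 RPKM at 2 μM for 6 h, and these ranges overlapped. Added together, the 2 rows differed by 0.56 on the log2 scale at 2 μM for 6 h (adjusted p = 0.0679) and by 0.54 at 10 μM for 24 h (adjusted p = 0.14), and they rose at 10 μM for 6 h and at 2 μM for 24 h (adjusted p = 0.0318 and 0.0369). The calls at 2 μM for 6 h and at 10 μM for 24 h therefore rest on the split between the rows. With all libraries set to an equal sum of RPKM the longer row was lower at 2 μM for 6 h (log2 difference -0.60, adjusted p = 0.00208).

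The Y RNAs, though low, rose by the largest factors at 2 μM for 6 h. RNY1 was 24.7, 38.8 and 38.3 RPKM untreated and 74.7, 144 and 98.6 RPKM at 2 μM for 6 h, a 3.04-fold rise (log2 difference 1.60 ± 0.23, adjusted p = 0.000581). RNY3 was 65.5, 88.8 and 71.0 RPKM untreated and 126, 277 and 235 RPKM at 2 μM for 6 h, a 2.70-fold rise (1.43 ± 0.25, adjusted p = 0.00139). Neither group overlapped the untreated libraries. At 10 μM for 6 h RNY1 was 126, 131 and 43.6 RPKM and RNY3 269, 210 and 55.1 RPKM, and replicate 3 was the lowest of its group in both, the reverse of its place in 7SL and RPPH1.

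RNY1 rose at 10 μM for 6 h by 1.42 ± 0.41 on the log2 scale (adjusted p = 0.0363), and RNY3 was not called (0.97 ± 0.53, adjusted p = 0.2). Without treated replicate 3 the log2 differences were 1.93 for RNY1 (adjusted p = 0.000106) and 1.67 for RNY3 (adjusted p = 8.13e-05). Without any other single library RNY1 was not called (adjusted p = 0.0813 to 0.127). RNY1 was still higher at 24 h, by 0.88 ± 0.15 at 2 μM (adjusted p = 0.00392) and 1.39 ± 0.26 at 10 μM (adjusted p = 0.003). RNY3 was not called at 24 h, with log2 differences of 0.45 ± 0.18 and 0.26 ± 0.27 (adjusted p = 0.0901 and 0.485).

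The vault RNAs were at the edge of detection in HCT116. VTRNA1-1, VTRNA1-2 and VTRNA1-3 were listed at 0 in 9, 12 and 9 of the 15 libraries and reached at most 1.08, 1.16 and 1.25 RPKM. VTRNA1-3 was the single vault row that could be tested, at 10 μM for 6 h, with a log2 difference of 0.82 ± 0.53 (adjusted p = 0.272).

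**Figure D2:**
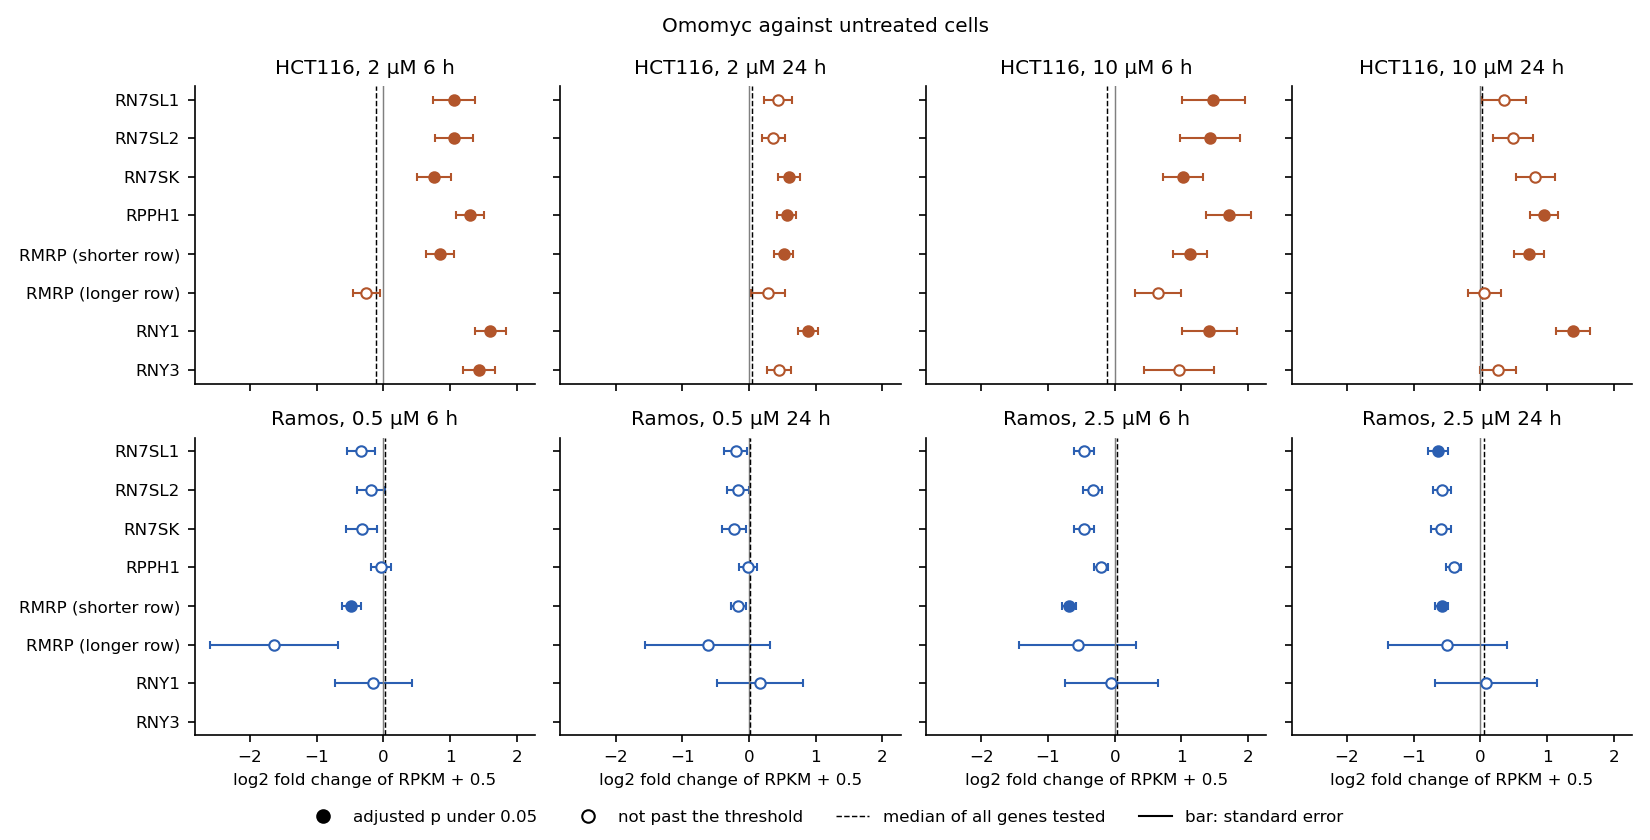
Log2 difference in log2(RPKM + 0.5) between Omomyc-treated and untreated cells of the same line, 1 point per member row and comparison, with bars of 1 SE from limma (3 libraries a group); filled points were called at an adjusted p under 0.05, and the dashed line is the median of all genes tested. In HCT116 the points lie above 0 except for the longer RMRP row at 2 μM for 6 h, and in Ramos the rows of 7SL, 7SK, RPPH1 and RMRP lie below 0 at all doses and times.

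In Ramos cells the differences that were called went the other way. The shorter row of RMRP fell at 0.5 μM for 6 h and at 2.5 μM for 6 and 24 h, and RN7SL1 fell at 2.5 μM for 24 h. No member row rose. By limma, 1 of 7 member rows tested fell at 0.5 μM for 6 h, where 9.73% of all genes were called lower and 13.8% higher. At 2.5 μM, 1 of 7 fell at 6 h (10.7% lower, 17.3% higher) and 2 of 7 at 24 h (1.31% lower, 3.3% higher). At 0.5 μM for 24 h no member row was called at an adjusted p under 0.05 and none had an unadjusted p under 0.05, where 0.0146% of all genes were called higher and 0% lower. At 6 h the member counts were near the background. At 0.5 μM for 6 h the count was 0 without untreated replicate 1 or 2 or treated replicate 1 or 2 and 2 without untreated replicate 3. Over all genes, 1325 were called lower there. That number was 911 and 1064 without untreated replicates 1 and 2 and 1025 and 755 without treated replicates 1 and 2. At 2.5 μM for 6 h the member count was 5 without untreated replicate 3, where 1420 genes were called lower against 1449. At 2.5 μM for 24 h the member count was 0 without any 1 treated library or untreated replicate 1, 1 without untreated replicate 2 and 4 without untreated replicate 3. Over all genes, 178 were called lower there. That number was 49, 40 and 43 without treated replicates 1, 2 and 3. It was 108, 103 and 248 without untreated replicates 1, 2 and 3.

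The RMRP row of 264 bases was 23799, 21055 and 19476 RPKM in untreated Ramos cells and 14492, 12700 and 12819 RPKM at 2.5 μM for 6 h. It was 15540, 14486 and 12932 RPKM at 2.5 μM for 24 h and 14553, 13885 and 17839 RPKM at 0.5 μM for 6 h. In these 3 groups all libraries lay below the untreated ones. The log2 differences were -0.68 ± 0.10 (1.61-fold lower, adjusted p = 0.0017), -0.58 ± 0.10 (adjusted p = 0.0205) and -0.48 ± 0.14 (adjusted p = 0.0343). At 0.5 μM for 24 h the row was 20677, 18572 and 18210 RPKM, which overlapped the untreated range (-0.16 ± 0.11, adjusted p = 0.871). The call at 2.5 μM for 24 h was lost without treated replicate 1, 2 or 3 (adjusted p = 0.064, 0.087 and 0.113) and without untreated replicate 1 (adjusted p = 0.0506). The call at 0.5 μM for 6 h was lost without treated replicate 1 or 2 (adjusted p = 0.0863 and 0.118) and without untreated replicate 1 or 2 (adjusted p = 0.128 and 0.0831). The longer row held at most 150 RPKM in Ramos and was not called.

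7SL reached its lowest values at 2.5 μM. RN7SL1 was 90024, 103231 and 74319 RPKM untreated, 67148, 62324 and 63658 RPKM at 2.5 μM for 6 h and 62571, 56449 and 52322 RPKM at 2.5 μM for 24 h. Both treated groups lay wholly below the untreated one. RN7SL1 fell by 0.63 ± 0.15 on the log2 scale at 2.5 μM for 24 h (1.55-fold lower, adjusted p = 0.0479), and the difference of -0.46 ± 0.15 at 2.5 μM for 6 h missed the threshold (adjusted p = 0.0523). RN7SL2 gave -0.33 ± 0.15 and -0.57 ± 0.14 at 2.5 μM for 6 and 24 h (adjusted p = 0.13 and 0.0546), again with no overlap. The call of RN7SL1 at 24 h was lost under median-ratio scaling (adjusted p = 0.0829) and with the 7SL rows summed (adjusted p = 0.0774). It was also lost without any 1 library other than untreated replicate 3 (adjusted p = 0.099 to 0.217).

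At 0.5 μM the 7SL rows overlapped the untreated range. RN7SL1 was 65832, 67134 and 78206 RPKM at 6 h and 86952, 72471 and 72706 RPKM at 24 h, with log2 differences of -0.33 ± 0.21 and -0.20 ± 0.17 (adjusted p = 0.278 and 0.881).

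7SK and RPPH1 were not called in Ramos. RN7SK was 139108, 163602 and 137384 RPKM untreated, 105304, 106636 and 107354 RPKM at 2.5 μM for 6 h and 108238, 91768 and 91961 RPKM at 2.5 μM for 24 h. The treated libraries all lay below the untreated ones, and the log2 differences of -0.46 ± 0.15 and -0.59 ± 0.14 were just short of the threshold (adjusted p = 0.0502 and 0.0549). At 0.5 μM for 6 h RN7SK was 105776, 118244 and 127583 RPKM, also below the untreated libraries (-0.32 ± 0.23, adjusted p = 0.343). RPPH1 was 41808, 45884 and 42476 RPKM untreated and 37354, 30540 and 30964 RPKM at 2.5 μM for 24 h, with no overlap (-0.40 ± 0.11, adjusted p = 0.0753). At 2.5 μM for 6 h its log2 difference was -0.21 ± 0.10 (adjusted p = 0.177), and at 0.5 μM it was -0.04 ± 0.15 at 6 h and -0.01 ± 0.14 at 24 h.

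RNY1 was 0 to 2.81 RPKM over the Ramos libraries and RNY3 0 to 0.877 RPKM, with 2 and 6 of 15 libraries listed at 0. The log2 differences of RNY1 lay between -0.15 and 0.16, and RNY3 was under the filter on low values. The 3 vault RNA rows were listed at 0 in all 15 Ramos libraries.

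The time points were then set against each other at the same dose. In HCT116 at 2 μM, 3 of 8 member rows were lower at 24 h than at 6 h and none was higher, where 9.85% of all genes were called lower and 30.9% higher. RPPH1 fell from 26225 ± 5088 to 15714 ± 2421 RPKM (SD, n = 3), a log2 difference of -0.73 ± 0.22 (adjusted p = 0.0249), RNY1 by 0.72 ± 0.19 (adjusted p = 0.0151) and RNY3 by 0.98 ± 0.28 (adjusted p = 0.0205). RN7SL1 and RN7SL2 were lower in every library at 24 h but were not called (-0.62 ± 0.28 and -0.69 ± 0.27, adjusted p = 0.102 and 0.0618). RN7SK differed by -0.16 ± 0.25 (adjusted p = 0.623). Without replicate 2 at 24 h, 1 row was called in place of 3.

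At 10 μM no member row was called by limma and none had an unadjusted p under 0.05, where 2.06% of all genes were called lower and 5.8% higher. RN7SL1 averaged 122712 ± 73495 RPKM at 6 h and 51204 ± 9987 RPKM at 24 h (log2 difference -1.12 ± 0.52, adjusted p = 0.199), and its spread at 6 h rested on replicate 3. Without that library 1 member row was called. In Ramos none of 7 rows was called between 24 and 6 h at either dose, and 1 row had an unadjusted p under 0.05 at each. At 2.5 μM 1 row was called without replicate 1 at 24 h. The backgrounds were 11.9% higher and 13.5% lower at 0.5 μM and 12.7% higher and 10.4% lower at 2.5 μM.

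Summed over all 11 rows, the members made up a large and variable part of each library's RPKM. The share was 23.3% ± 3.72 in untreated HCT116 cells (SD, n = 3), 35.1% ± 2.47 and 42.7% ± 8.04 after 6 h at 2 and 10 μM, and 28.8% ± 1.31 and 30.6% ± 4.12 after 24 h. At 10 μM for 6 h it was 37.7%, 38.4% and 52.0% in replicates 1, 2 and 3. In Ramos the share was 43.3% ± 2.41 untreated, 38.4% ± 1.77 and 35.9% ± 0.296 after 6 h at 0.5 and 2.5 μM, and 40.2% ± 2.37 and 33.6% ± 2.11 after 24 h. Thus the share was higher than untreated at 6 h in HCT116 and lower in Ramos, with no overlap of libraries except at 24 h in HCT116 and at 0.5 μM for 24 h in Ramos.

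Exact permutation tests, two-sided, gave p = 0.1, the smallest that 3 libraries against 3 allow, for both HCT116 comparisons at 6 h, for Ramos at 0.5 μM for 6 h and at 2.5 μM for both times, and for untreated HCT116 against untreated Ramos. After adjustment over the 78 tests of library sums and ratios these became 0.229. The RPKM of all other rows moved little. It was 470693 to 521033 in HCT116 and 519252 to 540614 in Ramos, while the member rows ran from 121670 to 546294 in HCT116 and from 250157 to 445874 in Ramos. RPKM divides by the mapped reads of the library and not by this sum. Fewer cells and less RNA per cell cannot be told apart in these values.

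**Figure D3:**
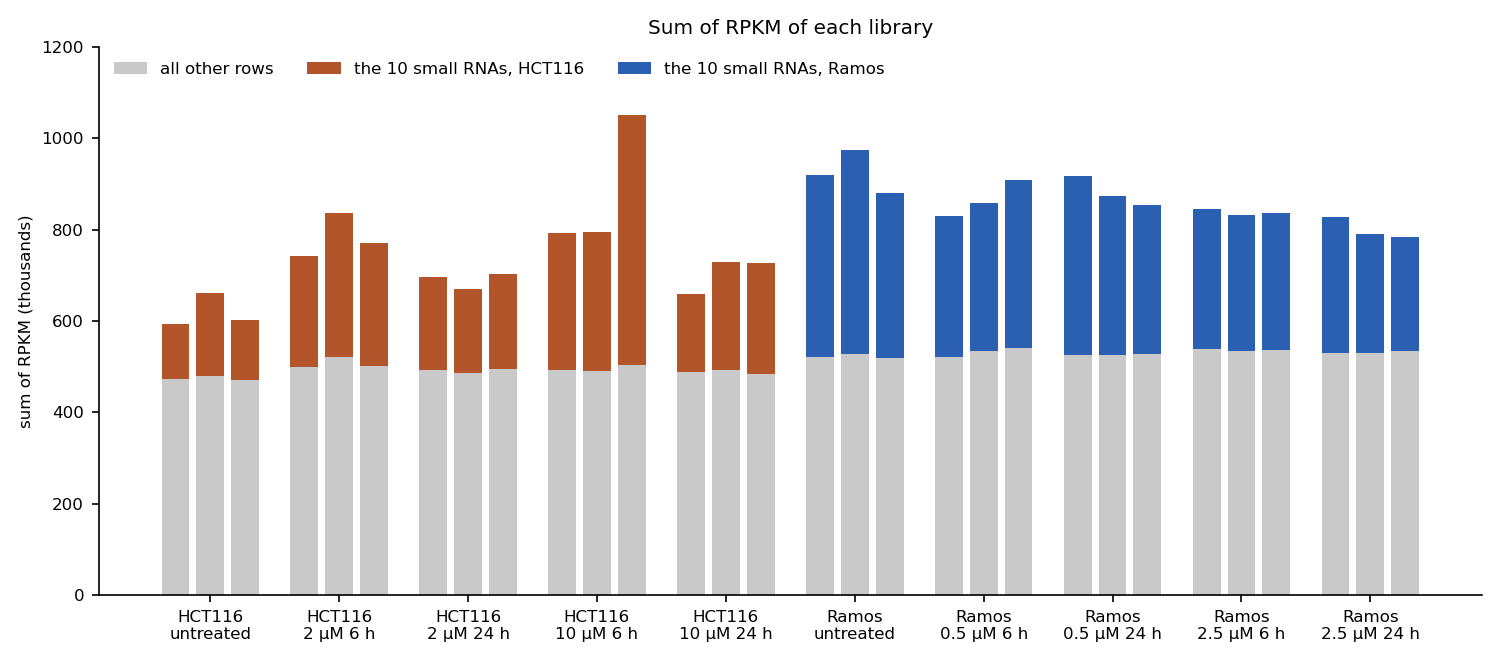
Sum of RPKM in each of the 30 libraries as stacked bars from 0, with the sum of the member rows coloured by cell line and all other rows in grey, grouped by cell line, dose and time. The grey part stays between 470693 and 540614 RPKM, and the total varies from 593633 to 1051040 RPKM mainly through the member rows, with HCT116 at 10 μM for 6 h replicate 3 the tallest.

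Ratios between members do not depend on the library's total. The ratio of RN7SL1 to RN7SL2 was 0.947 to 1.22 in HCT116 and 0.793 to 0.922 in Ramos, so the 2 lines did not overlap. The ratio of 7SL (RN7SL1 plus RN7SL2) to RN7SK was 2.30 ± 0.260 in untreated HCT116 and 1.29 ± 0.107 in untreated Ramos cells (SD, n = 3). In HCT116 it was 2.83 ± 0.341 at 2 μM for 6 h and 2.00 ± 0.033 and 1.74 ± 0.210 at 24 h, above the untreated range at 6 h and below it at 24 h (exact permutation p = 0.1 for each). At 10 μM for 6 h replicates 1 and 2 stood at 2.36 and 1.77 and replicate 3 at 7.03, so that this group's mean of 3.72 has an SD of 2.88. In Ramos all 15 libraries lay between 1.17 and 1.44, and no treated group was apart from the untreated one.

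The ratio of RPPH1 to RN7SK was 0.321 ± 0.013 in untreated HCT116 cells and 0.471 ± 0.075 at 2 μM for 6 h, with no overlap (exact permutation p = 0.1, 0.229 adjusted). The other HCT116 groups overlapped the untreated one, at 0.315 ± 0.029 at 2 μM for 24 h, 0.578 ± 0.355 at 10 μM for 6 h and 0.353 ± 0.035 at 10 μM for 24 h (exact permutation p = 0.7, 0.2 and 0.2). At 10 μM for 6 h the ratio was 0.415, 0.334 and 0.986 in replicates 1, 2 and 3. In Ramos it was 0.297 ± 0.015 untreated and 0.361, 0.343, 0.353 and 0.338 at 0.5 μM for 6 and 24 h and at 2.5 μM for 6 and 24 h, and all 4 treated groups lay wholly above the untreated libraries (exact permutation p = 0.1 for each, 0.229 adjusted). RMRP, both rows, was 0.739 ± 0.040 of RN7SK in untreated HCT116 and 0.148 ± 0.022 in untreated Ramos cells. The longer row took 16.5% to 38.6% of the RMRP signal in HCT116 and 0.0453% to 0.626% in Ramos. Within HCT116 this share was 34.0% ± 4.18 untreated and 19.4% ± 4.10 at 2 μM for 6 h, with no overlap.

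**Figure D4:**
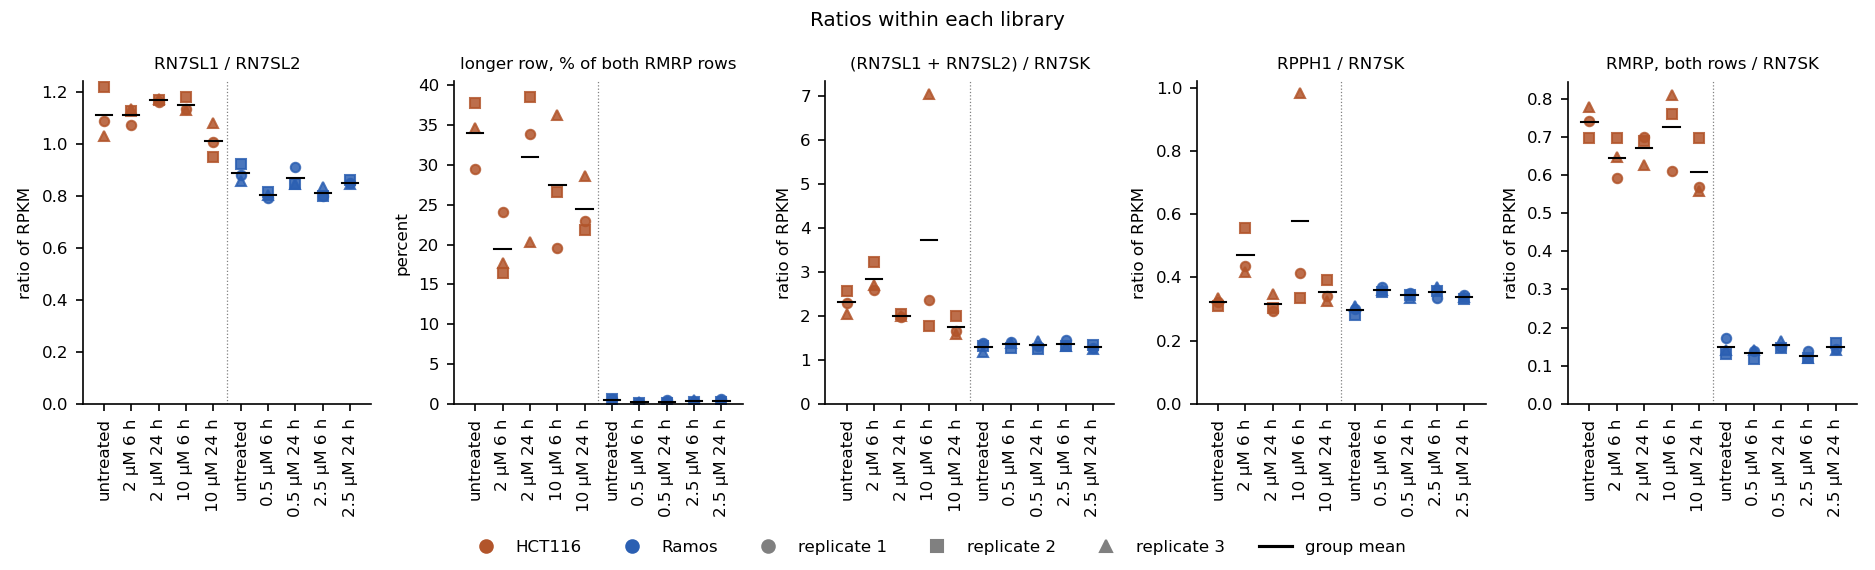
Ratios of RPKM between members and, in the second panel, the percentage of RMRP in its longer row, in each of the 30 libraries, 1 point per library with a short bar at each group mean, by cell line, dose and time. The ratio of 7SL to RN7SK lies between 1.17 and 1.44 in Ramos and reaches 7.03 in 1 HCT116 library, and RPPH1 over RN7SK is above the untreated Ramos libraries in all 4 treated Ramos groups.

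Across the 15 libraries of a line, which share their untreated group and differ in dose and time, the members moved together to different degrees. Pearson's r on log2 values was 0.99 in HCT116 and 0.97 in Ramos for RN7SL1 with RN7SL2, whose reads cannot be fully separated. For RN7SL1 with RPPH1 it was 0.93 and 0.82, and Spearman's rho was 0.95 and 0.76. RN7SL1 with RN7SK gave an r of 0.60 in HCT116 and 0.95 in Ramos, and without the 2 libraries farthest from the median of RN7SL1 the HCT116 value was 0.82. RN7SK with RMRP, both rows, gave 0.91 and 0.83. These are descriptions over libraries that fall into 5 groups a line.

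Among 9234 genes outside the member families with a mean of at least 2 RPKM in each line, those most like a member were ranked by the lower of the 2 within-line values of r. SCARNA7, a small Cajal body RNA, was nearest to RN7SL1 (r = 0.83 in HCT116 and 0.89 in Ramos, 15 libraries each), followed by MT-CO3, a mitochondrial subunit of cytochrome c oxidase, and RPS27, a ribosomal protein. MT-CO2 (0.82 and 0.88), SCARNA12 (0.82 and 0.92) and MT-CO3 were nearest to RN7SK, and MT-CO2, SCARNA7 and SELENOW to RPPH1. For the shorter row of RMRP they were SEMA7A (0.87 in each line), MFSD2A and TOR1AIP1. For the longer row the highest values were lower, at 0.58 and 0.63 for PCBP1-AS1, with AL109811.3 and ZNF738 next.

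The table also holds many copies of these genes. The 7SL family had 849 rows, of which 847 were copies other than RN7SL1 and RN7SL2, and 48 of the copies had a mean of at least 0.5 RPKM. The highest copy was RN7SL4P, with a mean of 1835 RPKM and 86.1% identity to RN7SL1. The copies together held 2.41% to 3.42% of the family's RPKM in HCT116 and 0.530% to 1.14% in Ramos. The 7SK family had 301 rows, of which the highest copy, RN7SKP255, had a mean of 32.3 RPKM. Of 810 Y RNA copies 1 passed 0.5 RPKM, RF00019, at 2.95 RPKM, and the RNase MRP and RNase P copies were listed at 0.

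A list of other Pol III RNAs was read beside the members. BCYRN1, the neuronal BC200 RNA, rose in HCT116 from 72.1 ± 14.9 RPKM to 285 ± 39.6 RPKM at 2 μM for 6 h (SD, n = 3), a log2 difference of 1.99 ± 0.15 (adjusted p = 2.8e-05), and by 1.45, 1.98 and 1.63 in the other HCT116 comparisons. RN7SL3 rose by 1.11 ± 0.17 at 2 μM for 6 h (adjusted p = 0.000805) and by 0.78, 1.45 and 0.73 in the others. These were the 2 of 4 tested rows that were called in each HCT116 comparison. RN7SL3 is 97.7% identical to RN7SL1, so its reads cannot be fully separated from those of the 7SL members. Of all genes, 15.5% and 16.6% were called higher at 2 μM for 6 and 24 h and 8.84% and 19.5% at 10 μM. In Ramos BCYRN1 fell at 2.5 μM for 6 h from 1.39 ± 0.112 to 0.635 ± 0.282 RPKM (adjusted p = 0.027), a level near the filter, and it was the single call of the list. RN7SL3 was 534 to 2506 RPKM in HCT116 and 7.41 to 25.4 RPKM in Ramos.

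Several small RNAs made by RNA polymerase II moved as well, so the HCT116 differences were not limited to Pol III products. Of 13 tested rows of spliceosomal, small nucleolar and small Cajal body RNAs, 8 rose at 2 μM for 6 h. At 2 μM for 24 h and at 10 μM for 6 h 7 rose, and none fell in these 3 comparisons. Of all genes, 15.5%, 16.6% and 8.84% were called higher in them. At 10 μM for 24 h 3 rose and 2 fell, near the 19.5% higher and 15.7% lower of all genes. The list's median log2 difference there was 0.04, against 0.02 for all genes. At 2 μM for 6 h the median log2 difference of the list was 0.82, against 1.06 for the member rows. SNORD3A, the most abundant row of the list, was 10078 ± 3813 RPKM in untreated HCT116 cells (SD, n = 3). At 2 μM it was 8873 ± 2834 RPKM at 6 h and 18264 ± 3296 RPKM at 24 h. At 10 μM it was 18953 ± 13100 RPKM at 6 h and 10271 ± 4866 RPKM at 24 h. Its mean thus stayed near the untreated one at 2 μM for 6 h and at 10 μM for 24 h. RNU1-1 (U1) rose from 33.9 ± 37.7 to 363 ± 201 RPKM at 2 μM for 6 h (adjusted p = 0.00216) and RNU4-2 (U4) from 53.3 ± 5.98 to 400 ± 184 RPKM (adjusted p = 7.61e-05). SCARNA2 rose at both doses at 24 h, by 1.12 and 1.57 on the log2 scale. TERC, the telomerase RNA, rose by 1.19 ± 0.07 at 10 μM for 24 h (adjusted p = 6.97e-06), where RNU2-2P fell by 2.00 ± 0.32 (adjusted p = 0.00136). In Ramos none of 12 rose, and SCARNA10 was the single call at 6 h, with log2 differences of -0.40 and -0.53 at 0.5 and 2.5 μM. Of all genes, 9.73% and 10.7% were called lower there. At 2.5 μM for 24 h SCARNA10 and SCARNA5 fell, where 1.31% of all genes were called lower.

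The proteins that make or carry these RNAs were read from mRNA rows of the same fits. Of 18 Pol III subunit genes, some shared with other polymerases, 11 rose and 3 fell in HCT116 at 2 μM for 6 h. At 2 μM for 24 h 5 rose and 1 fell. At 10 μM 4 rose and 1 fell at 6 h, and 8 rose and 2 fell at 24 h. Of all genes tested, 15.5% were called higher and 31.8% lower at 2 μM for 6 h, and 16.6% and 10.8% at 24 h. At 10 μM these shares were 8.84% and 21.2% at 6 h and 19.5% and 15.7% at 24 h. POLR2F, a subunit shared with RNA polymerases I and II, rose by 0.64 ± 0.09 on the log2 scale at 2 μM for 6 h (adjusted p = 0.000534), and POLR3B, the second largest Pol III subunit, fell by 0.44 ± 0.09 (adjusted p = 0.00324). The 2 forms of 1 subunit went apart, as POLR3G rose by 0.43 at 24 h at each dose and POLR3GL fell by 0.28 at 10 μM for 24 h. In Ramos 3 of 18 rose at 2.5 μM for 6 h and 1 at 24 h, where 17.3% and 3.3% of all genes were called higher. None was called at 0.5 μM.

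Among 19 genes for initiation factors and MAF1, the Pol III repressor, 4 rose and 6 fell in HCT116 at 2 μM for 6 h. At 10 μM for 6 h 1 rose and 3 fell. These 6 h counts were near the shares of all genes. Those were 15.5% higher and 31.8% lower at 2 μM and 8.84% and 21.2% at 10 μM. At 24 h 4 rose at 2 μM (16.6% higher and 10.8% lower among all genes). At 10 μM for 24 h 8 rose and 2 fell (19.5% and 15.7%). SNAPC4, a subunit of the complex that binds the promoters of 7SK, RMRP and RPPH1, rose in each HCT116 comparison by 0.63 to 0.80 on the log2 scale. SNAPC3 of the same complex fell at 6 h by 0.71 ± 0.09 at 2 μM and by 0.79 ± 0.10 at 10 μM, and POU2F1 (OCT1), which helps to recruit it, by 0.75 ± 0.11 and 0.85 ± 0.12. In Ramos 2 rose and 2 fell at 0.5 μM for 6 h (13.8% and 9.73% of all genes). At 2.5 μM for 6 h 5 rose and 2 fell (17.3% and 10.7% of all genes). The TFIIIB subunit BRF1 rose at 6 h by 0.38 ± 0.08 at 0.5 μM and 0.27 ± 0.09 at 2.5 μM, while the TFIIIB subunit BDP1 fell by 0.31 ± 0.07 and 0.32 ± 0.05. MAF1 rose by 0.29 ± 0.05 in Ramos at 2.5 μM for 24 h (adjusted p = 0.0151), the single call of the list there.

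The genes for the protein partners of each RNA follow. Of 6 SRP protein genes, 2 rose and 1 fell in HCT116 at 2 μM for 6 h (15.5% and 31.8% of all genes). None rose in the other 3 HCT116 comparisons, where 16.6%, 8.84% and 19.5% of all genes were called higher. In them 3 fell at 2 μM for 24 h, 1 at 10 μM for 6 h and 2 at 10 μM for 24 h. Of all genes, 10.8%, 21.2% and 15.7% were called lower there. None was called in Ramos at any dose or time, where at most 17.3% of all genes were called higher and 10.7% lower. SRP54, the GTPase that binds signal peptides, fell in each HCT116 comparison, by 0.52, 0.25, 0.80 and 0.29 at 2 μM for 6 and 24 h and at 10 μM for 6 and 24 h. SRP19, which helps SRP54 onto 7SL, rose by 0.55 ± 0.07 at 2 μM for 6 h (adjusted p = 0.000334).

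Of the 7 genes of the 7SK particle and P-TEFb, HEXIM2, an inhibitor of P-TEFb, fell in HCT116 at 6 h by 0.68 ± 0.11 at 2 μM and 0.59 ± 0.12 at 10 μM, and CDK9, the kinase of P-TEFb, fell by 0.30 ± 0.07 at 2 μM. Thus 2 of 7 fell at 2 μM for 6 h and 1 of 7 at 10 μM for 6 h. Of all genes, 31.8% and 21.2% were called lower there, so these counts did not exceed the background. None was called at 2 μM for 24 h, and at 10 μM for 24 h MEPCE, which caps 7SK, rose by 0.20 ± 0.07 (adjusted p = 0.0471). At 10 μM for 24 h 19.5% of all genes were called higher. In Ramos at 6 h MEPCE rose by 0.63 ± 0.07 and 0.68 ± 0.05 at 0.5 and 2.5 μM and CDK9 by 0.59 ± 0.09 and 0.54 ± 0.08, and LARP7, which binds the end of 7SK, fell by 0.16 ± 0.05 at 2.5 μM. There 13.8% and 17.3% of all genes were called higher at 0.5 and 2.5 μM, and 10.7% lower at 2.5 μM.

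Of 11 genes for the proteins of RNase P and RNase MRP, 4 rose in HCT116 at 2 μM for 6 h and 3 in each of the other HCT116 comparisons with untreated cells, where 15.5%, 16.6%, 8.84% and 19.5% of all genes were called higher at 2 μM for 6 and 24 h and at 10 μM for 6 and 24 h. Most of the list was not called, and the counts at 24 h were near the background. Of 10 tested in Ramos, 4 rose at 0.5 μM for 6 h, 5 at 2.5 μM for 6 h and 1 at 2.5 μM for 24 h, where 13.8%, 17.3% and 3.3% of all genes were called higher. None fell against untreated cells in either line. RPP21 rose in each HCT116 comparison by 0.39 to 0.61 and in Ramos at 6 h by 0.64 ± 0.11 and 0.58 ± 0.09 at 0.5 and 2.5 μM. RPP40 rose by 0.45 ± 0.08 in HCT116 at 2 μM for 6 h and by 0.48 ± 0.12 and 0.58 ± 0.08 in Ramos at 6 h, the groups in which the shorter row of RMRP rose in HCT116 and fell in Ramos.

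Of the 4 genes for Y RNA and 3′ end binding proteins, TROVE2, which encodes Ro60, fell in each HCT116 comparison by 0.23 to 0.47, and PUF60 rose in Ramos at 0.5 μM for 6 h and at 2.5 μM for both times by 0.20 to 0.31. ELAC2, which trims tRNA ends, rose in HCT116 at 24 h by 0.16 and 0.26. Of the 3 vault protein genes, all 3 fell in HCT116 at 2 μM for 6 h, where 31.8% of all genes were called lower. PARP4 fell in each HCT116 comparison, by 0.56 ± 0.08 and 0.67 ± 0.14 at 6 h. MVP, the major vault protein, rose at 24 h by 0.22 and 0.18 in HCT116 and by 0.37 ± 0.11 in Ramos at 0.5 μM for 6 h.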

How the data were processed

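RNA-Seq was available for 30 libraries, 3 in each of 10 groups, prepared from total RNA with the Illumina TruSeq Stranded Total RNA kit after Ribo-Zero depletion. The authors deposited 1 table of RPKM values per gene and library, and the labels' processing notes name RSEM; the version, aligner, genome build and annotation are not given in the sources used here. RPKM holds no counts, so the depth behind each value is unknown and no counting interval is given. Identifiers were matched to GENCODE 29 (57388 of 57992 rows), which gave positions and sequences; some sequences and 1 cell line marker are not reported here. All 30 value columns were assigned to a sample by title, and 0 columns were left without one.

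Groups followed the GEO titles, which give 24 h where a time tag of the labels gives 4 h, and 2 μM where the methods give 2.5 μM as the lower HCT116 dose. Nothing states that libraries of a group came from separate cultures, so p-values measure the spread between these libraries, which may be technical. In each of 13 comparisons, genes with a mean of at least 0.5 RPKM over the 6 libraries compared were tested on log2(RPKM + 0.5) with limma 3.58.1 (R 4.3.3; lmFit and eBayes with trend), fitted on those 2 groups, with Benjamini-Hochberg adjustment over all genes tested and calls at an adjusted p under 0.05. The fit was tested on simulated data. Library shares and ratios were compared by exact permutation tests in SciPy 1.17.1, two-sided, where 3 against 3 libraries cannot give p below 0.1.

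The members and the gene lists were chosen with earlier results of these data known. Named genes were all members, the highest copy of each family, at most the 2 largest rises and 2 largest falls among called genes of each list and comparison, and the 3 genes most like each of RN7SL1, RN7SK, RMRP and RPPH1. Alternatives were pseudocounts of 0.1 and 1, no filter on low values, median-ratio scaling, equal sums of RPKM with and without small RNAs, all groups in 1 fit, a block for replicate number, rows of 1 RNA summed, and each library left out.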

Additional observations from a re-analysis of the deposited data

Results flagged for a closer look

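For several members every Omomyc-treated HCT116 library at 2 μM lay above all untreated HCT116 libraries, while every treated Ramos library at 2.5 μM lay below all untreated Ramos libraries at the same time. The rows below are listed because they met this rule, and the share of all genes that meet it is not given here. Of all genes, 15.5% were called higher in HCT116 and 10.7% lower in Ramos at 6 h, and 16.6% and 1.31% at 24 h. The difference between the lines was not tested. Dose differs between them, and delivery may differ. Each value below is the log2 difference of HCT116 minus that of Ramos.

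At 6 h the gap was 1.52 for RN7SL1, from 1.06 in HCT116 to -0.46 in Ramos, and 1.39 for RN7SL2, from 1.06 to -0.33. With the 7SL rows added it was 1.45. RN7SK gave 1.22 (0.76 and -0.46) and RPPH1 1.51 (1.30 and -0.21). The shorter row of RMRP gave 1.53 (0.85 and -0.68), and both RMRP rows added gave 1.25 (0.56 and -0.68). Of the single rows, only the shorter row of RMRP was called by limma in Ramos at 2.5 μM for 6 h. The adjusted p there was 0.0523 for RN7SL1, 0.13 for RN7SL2, 0.0502 for RN7SK and 0.177 for RPPH1.

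At 24 h the gap was 1.19 for RN7SK (0.60 and -0.59) and 0.967 for RPPH1 (0.56 and -0.40). The shorter row of RMRP gave 1.10 (0.52 and -0.58), and both RMRP rows added gave 1.04 (0.46 and -0.58). In Ramos at 2.5 μM for 24 h RN7SK and RPPH1 were not called by limma (adjusted p = 0.0549 and 0.0753).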

How the results depend on the processing

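The values limit what can be said in 4 ways. Depth is unknown, groups hold 3 libraries, reads shared by near-identical rows are divided by the authors' counting, and many adjusted p-values lie close to the threshold. The text below gives numbers of member rows called where they moved by more than 1.5 times. Elsewhere they stayed within that, and no count moved in the comparison of untreated lines.

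With all groups of the lines in 1 fit, the number called was 0 at HCT116 2 μM for 24 h, 0 for 24 against 6 h at HCT116 2 μM, 1 for the same at 10 μM, 3 at Ramos 2.5 μM for 6 h, 5 at 2.5 μM for 24 h and 1 for 24 against 6 h at 0.5 μM. With an equal sum of RPKM it was 3 at HCT116 10 μM for 6 h, 2 at 2 μM for 24 h, 6 for 24 against 6 h at 2 μM, 4 at Ramos 2.5 μM for 24 h and 1 for 24 against 6 h at 0.5 μM. This scaling moved the median log2 difference of all genes to -0.42 at HCT116 2 μM for 6 h and -0.56 at 10 μM for 6 h. With an equal sum that leaves out small RNAs it was 6 for 24 against 6 h at HCT116 2 μM, 3 and 4 at Ramos 2.5 μM for 6 and 24 h and 1 for 24 against 6 h at 0.5 μM. Median-ratio scaling gave 3 at HCT116 10 μM for 6 h, 2 at 2 μM for 24 h and 1 at Ramos 2.5 μM for 24 h. With no filter on low values it was 2 and 1 at HCT116 2 μM for 6 and 24 h, 0 and 1 at 10 μM for 6 and 24 h, 0 for 24 against 6 h at 2 μM, and 0 at Ramos 0.5 μM for 6 h and 2.5 μM for 6 and 24 h. With a pseudocount of 0.1 it was 3 and 4 at Ramos 2.5 μM for 6 and 24 h, and with a pseudocount of 1 it was 1 at 2.5 μM for 24 h. With the rows of 1 RNA summed it was 2 at Ramos 0.5 and 2.5 μM for 6 h. Calls over all genes moved with these settings too. At HCT116 10 μM for 6 h 1307 of 14785 genes were called higher in the main fit. With no filter it was 889 of 29518, with an equal sum of RPKM 309 of 14823 and under median-ratio scaling 2138 of 14783. The cause of these changes was not tested.

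The replicate block gave 3 at HCT116 10 μM for 6 h, 2 at 2 μM for 24 h and 1 at Ramos 2.5 μM for 24 h, and moved no other count by more than 1.5 times. The replicate numbers did not pair the libraries, since same-numbered libraries deviated together with correlations of -0.219 to 0.148 and no comparison had all 3 over 0.1.

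Among called member rows, the direction turned only for the shorter row of RMRP between untreated HCT116 and Ramos, to 0.16 with an equal sum of RPKM and to 0.18 with both RMRP rows summed. Some rows that were not called also changed sign, such as the longer RMRP row at HCT116 2 μM for 6 h, from -0.26 to 0.56 with the rows summed. Over all member rows, 23 calls were lost with no filter, 8 each in 1 fit, under median-ratio scaling and under the block.

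Leaving out each library in turn gave 4 to 7 rows at HCT116 2 μM for 6 h, 1 to 6 at 2 μM for 24 h, 0 to 7 at 10 μM for 6 h and 2 to 4 at 10 μM for 24 h. It gave 0 to 2 at Ramos 0.5 μM for 6 h, 0 at 0.5 μM for 24 h, 1 to 5 at 2.5 μM for 6 h and 0 to 4 at 2.5 μM for 24 h. For 24 against 6 h it gave 1 to 4 and 0 to 1 in HCT116 at 2 and 10 μM and 0 and 0 to 1 in Ramos at 0.5 and 2.5 μM, and it gave 8 between the untreated lines. At HCT116 10 μM for 6 h the count was 0, 1 and 1 without untreated replicates 1, 2 and 3 and 3 without treated replicate 1. At 2 μM for 6 h it was 4 without untreated replicate 1 or 3, and at 2 μM for 24 h 1 without untreated replicate 1 or 3 or treated replicate 1. At Ramos 2.5 μM for 24 h it was 0 without any 1 treated library or untreated replicate 1. The calls over all genes went down in these fits as well. At HCT116 10 μM for 6 h 1307 genes were called higher, and 600, 589 and 509 without untreated replicates 1, 2 and 3. The difference in the members' share of RPKM, for which leaving out a library was chosen after seeing the data, moved by less than the spread between replicates each time. Leaving out 1 of 3 libraries always moves a group mean by less than the group's SD, so this check could not have failed.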
